A study of Mus musculus with 12 samples.

Results

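The 10 genes described here belong to bone morphogenetic protein (BMP) signalling in mouse embryonic stem cells: the ligands Bmp2, Bmp4 and Bmp7, the secreted antagonist Nog, the pseudoreceptor Bambi, the inhibitory Smads Smad6 and Smad7, and the Id genes Id1, Id2 and Id3. They were taken by symbol from RNA-seq gene tables of 53379 genes, and all 10 were among the 17884 genes with enough counts to be tested. The series holds 12 libraries of ZHBTc4 cells in 6 groups of 2: Phf6 knockout (KO) with doxycycline, wild type (WT) with doxycycline, KO with retinoic acid, WT with retinoic acid, KO untreated and WT untreated. ZHBTc4 is a line of strain 129/Ola in which the native Pou5f1 (Oct4) genes are disrupted and a transgene that doxycycline turns off supplies the factor, and both genotypes share that background. Doxycycline was given for 2 days at 0.5 µg/ml per the sample labels (the protocol text writes mg/ml), and retinoic acid for 4 days in medium without LIF, at a dose the protocol text writes as 10 mM. Untreated cells grew on gelatin in serum with LIF, after early passages on fibroblast feeders. The labels do not say how many lines or clones stand behind each genotype, nor whether the 2 libraries of a group came from separate cultures, and a p-value therefore speaks of the spread between libraries, which may be technical.

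BMP ligands bind pairs of type I and type II receptor kinases, which phosphorylate Smad1, Smad5 and Smad9, and these enter the nucleus with Smad4 and raise the transcription of target genes. The Id genes are the best known of those targets, and their proteins bind basic helix-loop-helix factors and keep them off DNA. Noggin, the product of Nog, traps ligands outside the cell, whereas Bambi, Smad6 and Smad7 act at the receptors or on the Smads and are themselves induced by the pathway, which makes them feedback inhibitors. In mouse embryonic stem cells in serum, BMP signals and the Id genes act with LIF to sustain self-renewal. In the early embryo, BMP4 made by the epiblast and later by the extraembryonic ectoderm patterns neighbouring tissues.

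The RefSeq promoter table (build GRCm38.p6) held 4 of the 10 genes, namely Bmp4, Id2, Id3 and Smad6, and their promoters are shown because these are the members whose levels between groups can be set beside the start-site sequence. Each runs 5′ to 3′ on the gene's own strand, from 250 bases before the RefSeq start to 50 bases from it. Capitals mark matches, on either strand, to the E box CANNTG that helix-loop-helix factors bind, to the GC-rich Smad1 and Smad5 element GGCGCC, and to the Smad palindrome GTCTAGAC. No match in these sequences overlapped another. Bmp4 lies at chr14:46390620-46390919 on the minus strand, Id2 at chr12:25096043-25096342 on the minus strand, Id3 at chr4:136143572-136143871 on the plus strand and Smad6 at chr9:64022010-64022309 on the minus strand.
Bmp4: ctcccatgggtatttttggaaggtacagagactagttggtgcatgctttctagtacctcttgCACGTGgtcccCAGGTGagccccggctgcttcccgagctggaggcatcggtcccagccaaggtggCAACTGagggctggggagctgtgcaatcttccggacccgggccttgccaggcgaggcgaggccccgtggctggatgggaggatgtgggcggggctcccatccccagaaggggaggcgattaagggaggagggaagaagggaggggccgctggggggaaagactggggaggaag
Id2: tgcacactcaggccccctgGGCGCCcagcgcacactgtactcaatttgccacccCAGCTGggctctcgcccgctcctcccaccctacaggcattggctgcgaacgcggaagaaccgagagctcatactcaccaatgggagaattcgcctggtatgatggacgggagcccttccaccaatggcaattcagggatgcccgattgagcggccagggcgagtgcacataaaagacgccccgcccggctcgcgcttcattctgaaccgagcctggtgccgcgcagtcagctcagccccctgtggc
Id3: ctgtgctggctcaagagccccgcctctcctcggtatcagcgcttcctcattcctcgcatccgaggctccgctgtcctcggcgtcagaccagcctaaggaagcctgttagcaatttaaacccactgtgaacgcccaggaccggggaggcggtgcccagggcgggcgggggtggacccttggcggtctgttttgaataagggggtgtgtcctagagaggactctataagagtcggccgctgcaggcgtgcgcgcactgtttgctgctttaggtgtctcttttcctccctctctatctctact
Smad6: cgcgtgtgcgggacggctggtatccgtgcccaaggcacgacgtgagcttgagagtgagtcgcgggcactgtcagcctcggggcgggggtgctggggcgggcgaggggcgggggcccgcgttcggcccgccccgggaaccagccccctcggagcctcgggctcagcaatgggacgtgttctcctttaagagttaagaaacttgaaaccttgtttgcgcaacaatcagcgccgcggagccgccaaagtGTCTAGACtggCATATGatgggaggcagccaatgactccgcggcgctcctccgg
Bmp4 held 3 E boxes and neither Smad element. Id2 held 1 GGCGCC and 1 E box, Smad6 held 1 GTCTAGAC and 1 E box, and the Id3 window held none of the 3 motifs. Among 32851 promoters of the same length, 72.3% held an E box, 11.9% GGCGCC and 0.213% GTCTAGAC. The 4 windows were 64.0% (Bmp4), 63.3% (Id2), 60.0% (Id3) and 66.3% (Smad6) G or C, against a median of 52.7% over all promoters. A match is a run of letters and not a measured binding site. No window of Id1 was held, and the Id2 and Id3 windows lie inside the gene spans given below.

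Libraries held 15799517 to 21441996 rounded counts. Gene positions below are those of GENCODE M21 on GRCm38. Levels are given as CPM, counts scaled to a library's size, after TMM scaling, and levels of different genes are compared only as TPM, which also divides by transcript length. Phf6 was lower in KO cells in each condition, with 4.49 to 8.19 CPM in the KO libraries against 29.9 to 42.8 CPM in the WT libraries. Pou5f1 read 13.0 and 14.3 CPM in KO cells with doxycycline, against 1196 and 1193 CPM in untreated KO cells. In WT cells, Pou5f1 read 34.0 and 46.3 CPM with doxycycline, against 1031 and 1013 CPM untreated. The doxycycline level was thus 2.98-fold lower in KO than in WT cells, and the part of this in the KO differences below was not tested. With retinoic acid, Pou5f1 read 976 and 989 CPM in KO cells and 973 and 1081 CPM in WT cells. Stem cell markers, a list of 10, summed to 4320 to 4470 TPM in untreated KO libraries and 3940 to 4060 TPM in untreated WT libraries. RNA of cells with retinoic acid was purified with a further kit, per the labels' protocols, so the retinoic acid responses cannot be told apart from extraction, loss of LIF or the longer culture.

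Nog and Bmp2 spanned the widest ranges of level across the 6 groups, and Id2 came next. For Nog the ratio of count rates, highest group over lowest, was 41.1 (exact 95% interval 17.4 to 128, on 5 counts in the 2 libraries of the lowest group), and for Bmp2 it was 25.4 (15.7 to 44.0, on 17 counts). These intervals cover each other's values, so no order between Nog and Bmp2 is given. For Id2 the ratio was 13.2 (11.9 to 14.7), and the intervals, here and below, cover counting error only. Bambi, whose highest group mean stood 2.41 times above its lowest in CPM, and Bmp7, at 2.73 times, varied least. On the length-scaled scale, Id1 was the most abundant member in 5 of the 6 groups, and Id3 was second in untreated cells of both genotypes. Group means of Id1 ran from 152 TPM in untreated WT cells to 791 TPM in KO cells with retinoic acid. Nog or Bmp2 had the lowest mean TPM in each group. Nog was lowest in untreated KO cells, at 0.125 TPM, and in both retinoic acid groups, and Bmp2 was lowest in untreated WT cells, at 0.180 TPM. By mean, Bmp2 was also lowest in both doxycycline groups, but libraries overlapped there. Bmp2 read 1.73 and 1.87 TPM in WT cells with doxycycline, against 1.55 and 2.37 TPM for Nog. In KO cells with doxycycline it read 2.43 and 2.73 TPM, against 2.84 and 2.64 TPM for Bmp7.

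**Figure D1:**
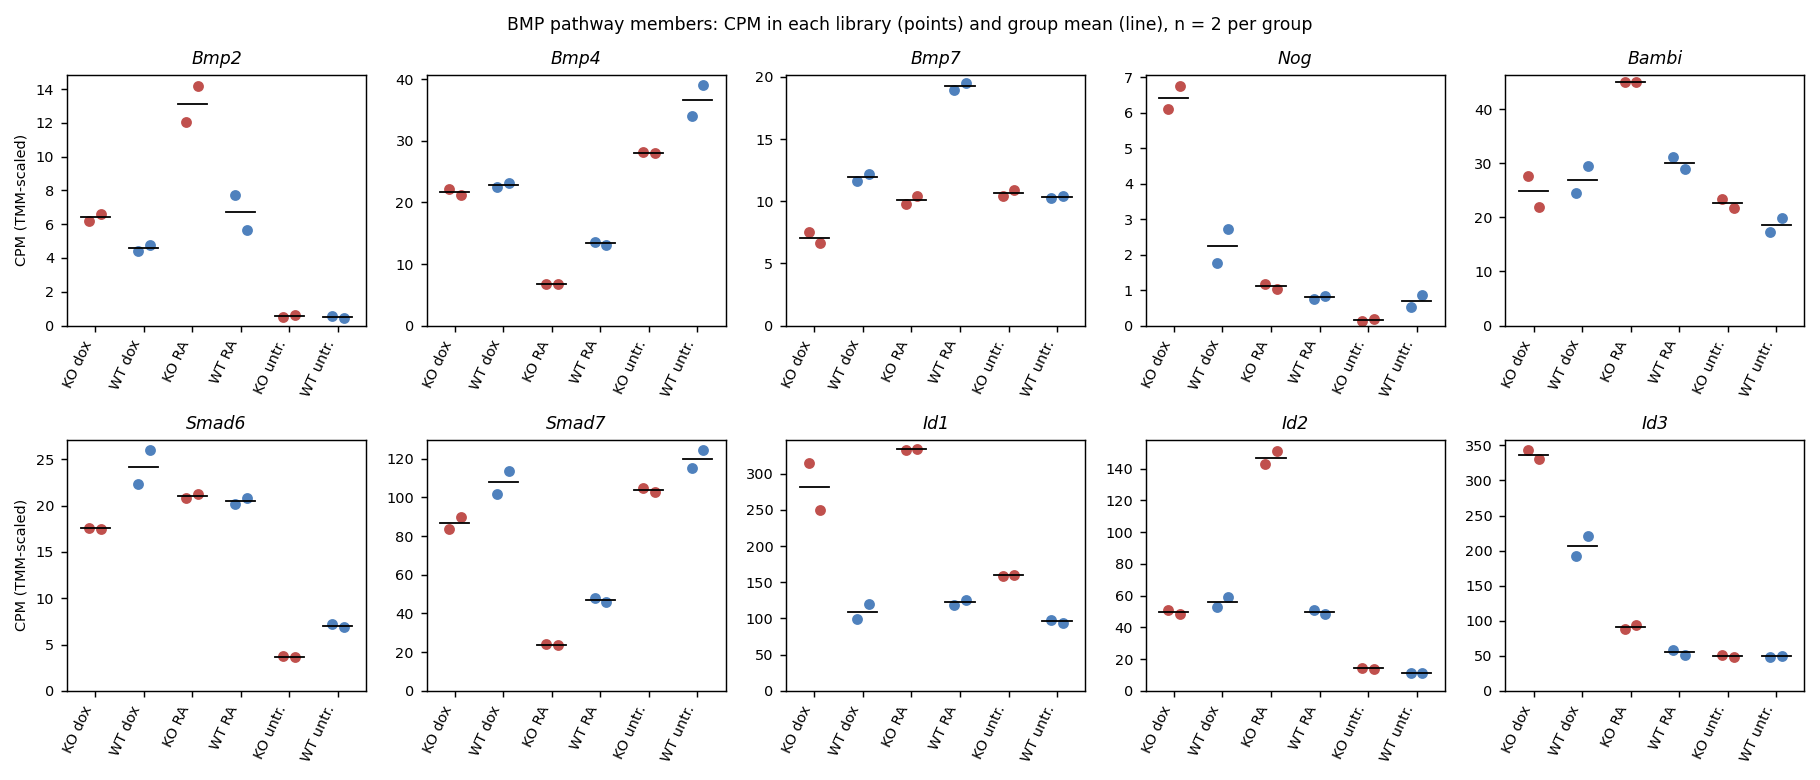
CPM (TMM-scaled, linear axis from 0) of the 10 genes in each library; points are libraries, lines are group means, n = 2 per group, KO in red and WT in blue. Id1 sits higher in both KO libraries than in both WT libraries in each condition, and Smad7 sits lower.

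**Figure D2:**
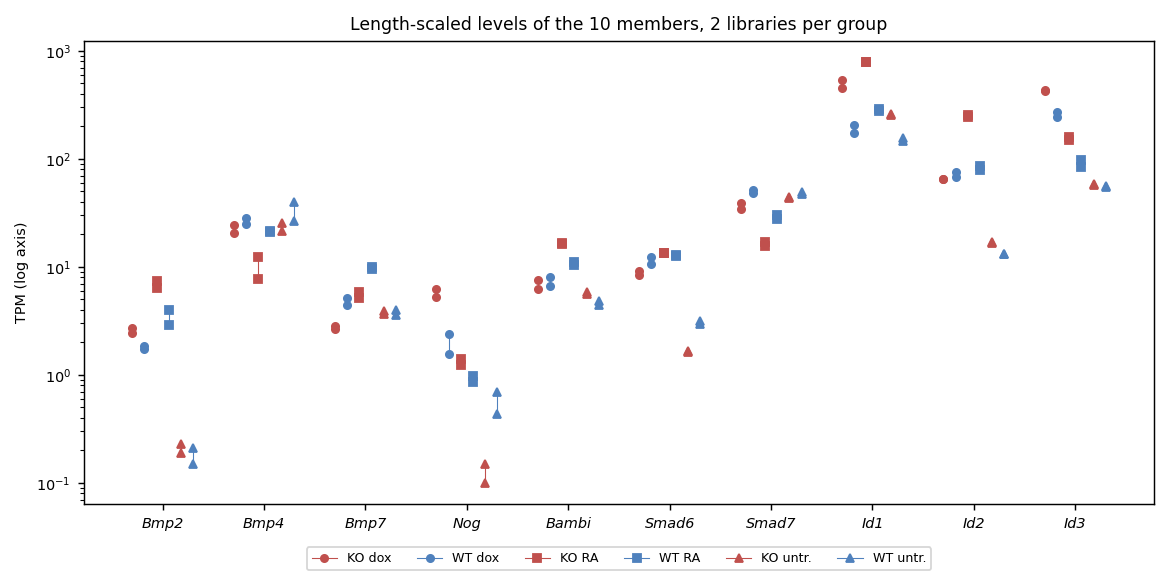
TPM (log axis) of the 10 genes in each library, with thin lines joining the 2 libraries of a group. In untreated cells Id1 and Id3 lie at the top and Nog and Bmp2 at the bottom. In KO cells Nog lies above Bmp7 with doxycycline, and by group mean Bmp2 lies above Bmp7 and Id2 above Id3 with retinoic acid. The Bmp4 libraries of untreated WT cells and of KO cells with retinoic acid lie apart.

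In every condition some members were higher and others lower in KO than in WT cells. Id1 was the 1 member higher in KO cells in all 3 conditions and Smad7 the 1 member lower in all 3. Among all tested genes, 719 (4.02%) were higher in all 3 conditions and 1053 (5.89%) lower in all 3, and the 3 comparisons share no library. In doxycycline-treated cells, Bmp2, Nog, Id1 and Id3 were higher and Bmp7, Id2, Smad6 and Smad7 lower in KO cells. These 4 higher and 4 lower members stand beside 17.9% of all genes higher, 19.1% lower and 37.0% either way. Leaving out any 1 library compared gave 3 higher, with Bmp2 lost, and 3 to 5 lower. The Bmp2 and Id2 calls were also lost in DESeq2 and with effective-length offsets. In retinoic acid-treated cells, Bmp2, Bambi, Id1, Id2 and Id3 were higher and Bmp4, Bmp7 and Smad7 lower, 5 and 3 members beside 18.8% of all genes higher, 20.0% lower and 38.8% either way. In untreated cells, Id1 and Id2 were higher and Bmp4, Nog, Smad6 and Smad7 lower, 2 and 4 members beside 15.2% of all genes higher, 14.9% lower and 30.0% either way. Leaving out 1 library gave 1 or 2 members higher and 2 to 4 lower untreated, with 1 higher without either WT library or KO replicate 1, and 2 lower without WT replicate 2; the Smad7 call was lost there and without KO replicate 2.

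Calls were made at an adjusted p below 0.05 in edgeR's quasi-likelihood test, with Benjamini-Hochberg adjustment over all 17884 genes, and each error given as ± beside a log2 change or a difference of log2 responses is a standard error (SE). The median log2 change of the 10 members, KO over WT, was -0.10 with doxycycline, 0.53 with retinoic acid and 0.035 untreated. Over all genes the medians were 0.0048 with doxycycline, -0.0054 with retinoic acid and 0.022 untreated. The 2 KO libraries did not overlap the 2 WT libraries for 9 members with doxycycline, 9 with retinoic acid and 7 untreated, where the share of all genes that did not overlap was 63.6% with doxycycline, 71.3% with retinoic acid and 63.5% untreated. Bmp2 and Nog passed the count filter through their treated libraries: they had 2 to 14 counts in each untreated library, of which 1 of 4 reached the filter's minimum for each gene, against 8 of 8 treated libraries.

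**Figure D3:**
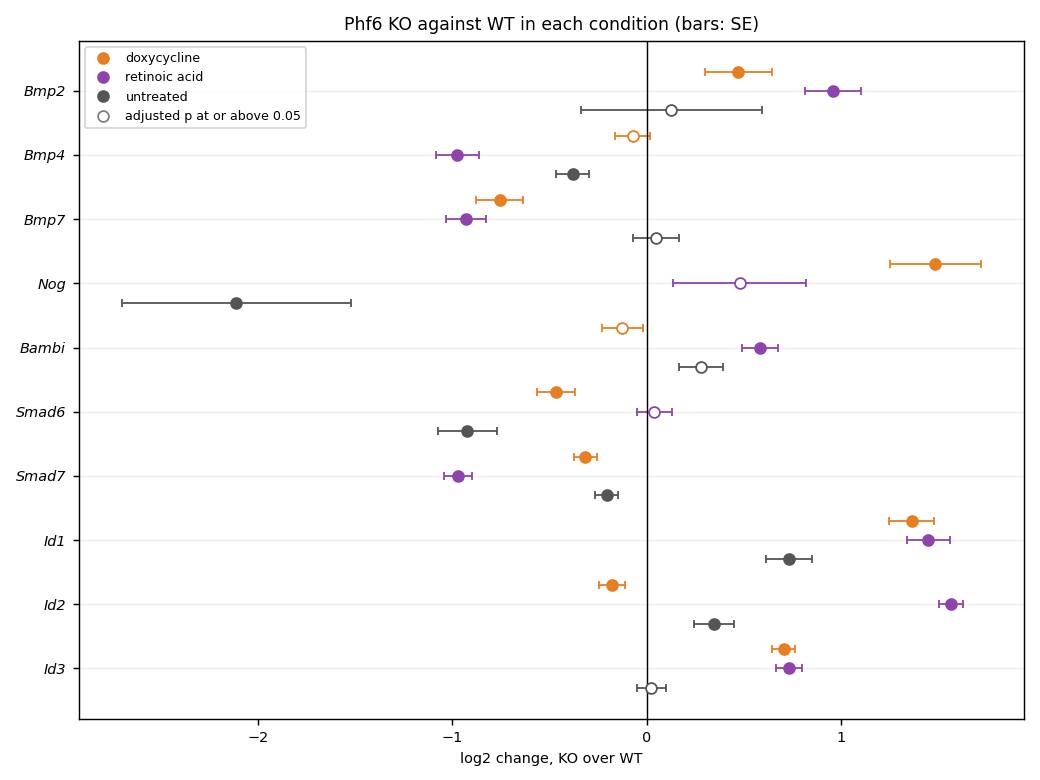
Log2 change, KO over WT, of each member with doxycycline, with retinoic acid and untreated; bars are standard errors and open symbols mark an adjusted p at or above 0.05. Id1 lies right of 0 and Smad7 left of 0 in all 3 conditions, and every other member differs in sign or call between conditions.

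With doxycycline, Id2, Id3 and Smad6 rose in both genotypes, and Bmp4 and Smad7 fell in both. With retinoic acid, Bambi, Id1, Id2, Id3 and Smad6 rose in both genotypes, Bmp4 and Smad7 fell in both, and Bmp7 rose in WT cells. Bmp2 and Nog entered the test because of their treated libraries, so their calls against untreated cells are left out of the counts here and their ratios are given below. Of the 8 other members, 4 were higher and 3 lower with doxycycline in KO cells, and 4 higher and 2 lower in WT cells. Those counts stand beside 31.2% of all genes higher and 31.2% lower in KO cells (62.3% in all), and 31.8% higher and 31.3% lower in WT cells (63.0% in all). With retinoic acid, 5 of the 8 were higher and 2 lower in KO cells, and 6 higher and 2 lower in WT cells, beside 40.9% of all genes higher and 34.6% lower in KO cells (75.5% in all), and 41.0% higher and 32.9% lower in WT cells (73.9% in all). The members' counts are read against those shares, which were high over the whole table. In WT cells with doxycycline 1 member was lower, not 2, without WT untreated replicate 2 or without WT doxycycline replicate 1, with Smad7 lost. In WT cells with retinoic acid, leaving out any 1 library compared lost the call of Id1, of Id3 or of both. Over all 10 members, Bmp2 included, that gave 5 to 6 higher in place of 7. The Id3 call was also lost with RLE factors and in DESeq2.

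**Figure D4:**
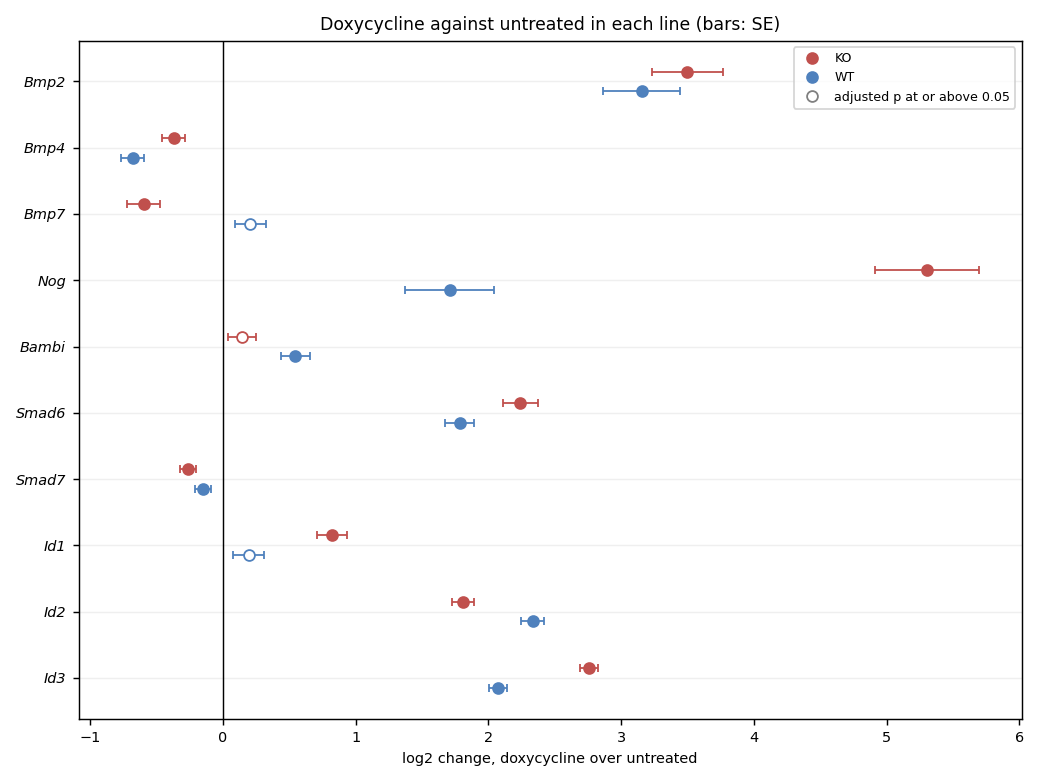
Log2 change, doxycycline over untreated, of each member in KO and WT cells; bars are standard errors and open symbols mark an adjusted p at or above 0.05. Bmp2, Smad6, Id2 and Id3 lie right of 1 in both genotypes, and Nog lies furthest right in KO cells, at a value that rests on 5 counts in the untreated KO libraries.

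**Figure D5:**
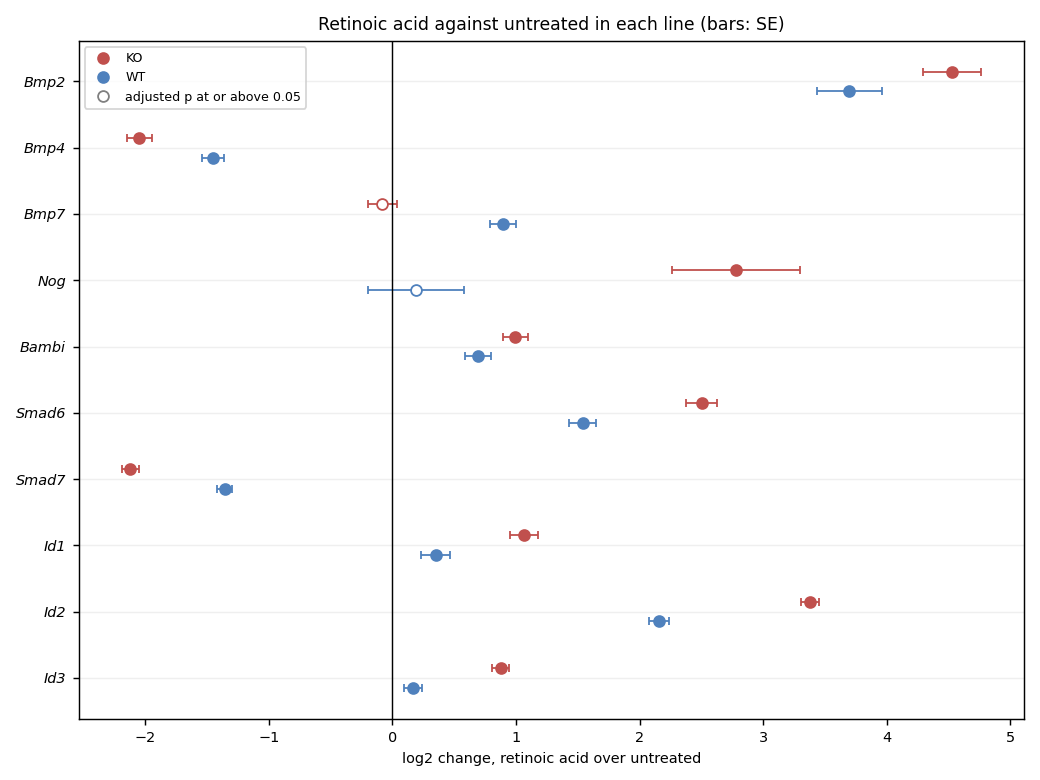
Log2 change, retinoic acid over untreated, of each member in KO and WT cells; bars are standard errors and open symbols mark an adjusted p at or above 0.05. Bmp4 and Smad7 lie left of -1 in both genotypes, and Id2 lies further right in KO than in WT cells.

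Among the ligands, Bmp2 (chr2:133552159-133562885, plus strand), a ligand that pairs with the type I receptor Bmpr1a, had few counts in untreated cells and rose with both treatments. It read 6.21 and 6.63 CPM in KO cells with doxycycline, against 4.43 and 4.79 CPM in WT cells with doxycycline. With retinoic acid, Bmp2 stood at 12.1 and 14.2 CPM in KO cells and 7.75 and 5.69 CPM in WT cells. Untreated KO libraries held 0.513 and 0.608 CPM, against 0.588 and 0.436 CPM in untreated WT libraries. Both treated conditions were higher in KO than in WT libraries without overlap, and the untreated groups overlapped, with a ratio of count rates, KO over WT, of 1.09 (exact 95% interval 0.531 to 2.25). Retinoic acid-treated KO cells had 1.94-fold more Bmp2 than WT cells (log2 change 0.96 ± 0.143, edgeR adjusted p = 4.0e-06). The doxycycline difference was smaller (log2 change 0.47 ± 0.174, edgeR adjusted p = 0.035), and its call was lost when any 1 of the 4 libraries compared was left out (log2 change 0.41 to 0.53, adjusted p 0.066 to 0.16). Over untreated cells, the ratio of count rates with doxycycline was 11.4 in KO cells (exact 95% interval 7.06 to 19.6) and 9.02 in WT cells (5.46 to 15.9). With retinoic acid that ratio was 23.3 in KO cells (14.6 to 39.6) and 13.2 in WT cells (8.10 to 23.0), and every treated library lay above every untreated one. The difference of responses between genotypes passed for neither treatment (doxycycline 0.34 ± 0.505, edgeR adjusted p = 0.71, retinoic acid 0.83 ± 0.496, edgeR adjusted p = 0.28).

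Bmp4 (chr14:46383520-46390669, minus strand), the ligand that sustains stem cells together with LIF, was highest in untreated cells and lowest with retinoic acid. It read 22.1 and 21.3 CPM in KO cells with doxycycline, against 22.5 and 23.2 CPM in WT cells with doxycycline. Retinoic acid-treated KO libraries held 6.83 and 6.75 CPM, against 13.5 and 13.2 CPM in WT libraries. Untreated, the levels were 28.1 and 28.0 CPM in KO cells and 34.0 and 39.2 CPM in WT cells. The 6 groups of Bmp4 libraries were separate from one another, with KO below WT in each condition. Retinoic acid-treated KO cells held 1.96-fold less Bmp4 (log2 change -0.97 ± 0.11, edgeR adjusted p = 3.8e-08). Untreated KO cells also held less (log2 change -0.38 ± 0.084, edgeR adjusted p = 0.00083), and with doxycycline the difference was not called (log2 change -0.07 ± 0.0901, edgeR adjusted p = 0.57). With retinoic acid, Bmp4 fell by 4.13-fold in KO cells (log2 change -2.05 ± 0.103, edgeR adjusted p = 1.7e-16) and 2.74-fold in WT cells (log2 change -1.45 ± 0.089, edgeR adjusted p = 1.8e-14), a larger fall in KO cells (difference -0.59 ± 0.139, edgeR adjusted p = 0.0028). Doxycycline gave log2 changes of -0.37 ± 0.0886 (edgeR adjusted p = 0.00063) in KO cells and -0.68 ± 0.0855 (edgeR adjusted p = 7.2e-08) in WT cells, and the difference of these responses was not called (0.31 ± 0.123, edgeR adjusted p = 0.082). The deposited effective length of Bmp4 ran from 964 to 1597 bases and differed inside groups, at 1583 and 964 in KO cells with retinoic acid and 1583 and 1182 in untreated WT cells. With those lengths as offsets the calls were lost for KO against WT untreated (-0.52, adjusted p = 0.1), for doxycycline in KO cells (-0.18, adjusted p = 0.5) and WT cells (-0.42, adjusted p = 0.11), and for the difference of retinoic acid responses (-0.64, adjusted p = 0.25). Bmp4 also overlaps Gm15222 and Gm15217 on the other strand, which held at most 24 and 3 counts, and the strand setting is not given in the sources used here.

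Bmp7 (chr2:172868012-172940321, minus strand), a ligand of the same family that acts through other type I receptors as well, differed between genotypes in treated cells. KO cells with doxycycline held 7.50 and 6.63 CPM, against 11.6 and 12.2 CPM in WT cells with doxycycline. With retinoic acid, Bmp7 stood at 9.78 and 10.5 CPM in KO cells and 19.0 and 19.6 CPM in WT cells. Untreated KO cells held 10.4 and 10.9 CPM, against 10.2 and 10.5 CPM in untreated WT cells. Treated KO libraries lay below treated WT libraries, and the untreated groups overlapped. The KO level was 1.69-fold lower with doxycycline (log2 change -0.76 ± 0.121, edgeR adjusted p = 1.0e-05) and 1.90-fold lower with retinoic acid (log2 change -0.93 ± 0.103, edgeR adjusted p = 2.6e-08), whereas untreated it was not called (log2 change 0.05 ± 0.117, edgeR adjusted p = 0.81). With retinoic acid, Bmp7 rose in WT cells (log2 change 0.90 ± 0.105, edgeR adjusted p = 1.5e-08), its change in KO cells did not pass (log2 change -0.08 ± 0.115, edgeR adjusted p = 0.53), and the difference between these responses passed (-0.98 ± 0.156, edgeR adjusted p = 3.5e-05). With doxycycline, it fell in KO cells (log2 change -0.60 ± 0.124, edgeR adjusted p = 0.00013), its change in WT cells did not pass (log2 change 0.21 ± 0.114, edgeR adjusted p = 0.12), and the responses differed (-0.80 ± 0.169, edgeR adjusted p = 0.00089).

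Among the inhibitors, Nog (chr11:89300638-89302332, minus strand) was highest in KO cells with doxycycline. These held 6.10 and 6.75 CPM, against 1.77 and 2.73 CPM in WT cells with doxycycline. Nog with retinoic acid read 1.17 and 1.05 CPM in KO cells and 0.748 and 0.848 CPM in WT cells. Untreated KO libraries held 0.128 and 0.182 CPM (2 and 3 counts), against 0.529 and 0.872 CPM (9 and 14 counts) in untreated WT libraries. KO lay above WT in treated cells and below WT in untreated cells, without overlap in any condition. With doxycycline the ratio of count rates, KO over WT, was 2.77 (exact 95% interval 2.13 to 3.62), and the difference passed (log2 change 1.48 ± 0.236, edgeR adjusted p = 1.0e-05). Untreated, the ratio was 0.224 (0.0666 to 0.603), called at adjusted p = 0.0069 by edgeR. That call was lost without WT untreated replicate 2 (adjusted p = 0.096, log2 change -1.73) or without KO untreated replicate 1 (adjusted p = 0.062, log2 change -1.91). With retinoic acid the KO difference was not called (ratio 1.40, interval 0.876 to 2.25, adjusted p = 0.29 by edgeR). Doxycycline over untreated gave ratios of 41.1 in KO cells (17.4 to 128) and 3.33 in WT cells (2.07 to 5.56). Retinoic acid over untreated gave 7.13 in KO cells (2.84 to 23.0) and 1.14 in WT cells (0.654 to 2.03).

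Bambi (chr18:3507923-3516404, plus strand), a transmembrane pseudoreceptor with no kinase domain, was higher in retinoic acid-treated KO cells than in any other group. It read 27.7 and 22.0 CPM in KO cells with doxycycline, against 24.4 and 29.5 CPM in WT cells with doxycycline. KO cells with retinoic acid held 45.0 and 45.0 CPM, against 31.1 and 29.0 CPM in WT cells with retinoic acid. Untreated KO cells held 23.4 and 21.8 CPM, and untreated WT cells held 17.4 and 19.9 CPM. The doxycycline groups overlapped and the others did not. The KO excess passed with retinoic acid (log2 change 0.58 ± 0.0924, edgeR adjusted p = 2.5e-05). It did not pass untreated (log2 change 0.28 ± 0.113, edgeR adjusted p = 0.07) or with doxycycline (log2 change -0.13 ± 0.104, edgeR adjusted p = 0.38). In the doxycycline-treated cells the value rests on single libraries: without KO replicate 1 the KO level was called lower (-0.31, adjusted p = 0.034), and without KO replicate 2 it was 0.03 (adjusted p = 0.88). With retinoic acid, Bambi rose by 1.99-fold in KO cells (log2 change 1.00 ± 0.0996, edgeR adjusted p = 5.5e-09) and 1.62-fold in WT cells (log2 change 0.69 ± 0.106, edgeR adjusted p = 3.9e-06). With doxycycline, it rose in WT cells (log2 change 0.55 ± 0.109, edgeR adjusted p = 0.00015), and its change in KO cells did not pass (log2 change 0.14 ± 0.108, edgeR adjusted p = 0.26) but did without KO doxycycline replicate 2 (0.30, adjusted p = 0.018). The difference of responses was called for neither retinoic acid (0.30 ± 0.146, edgeR adjusted p = 0.17) nor doxycycline (-0.40 ± 0.154, edgeR adjusted p = 0.073), though the doxycycline difference passed without WT doxycycline replicate 1 (-0.52, adjusted p = 0.016) or KO doxycycline replicate 1 (-0.58, adjusted p = 0.0052).

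Smad6 (chr9:63953076-64022059, minus strand), which blocks the BMP-activated Smads, was low in untreated cells and several times higher in all treated groups. It read 17.6 and 17.5 CPM in KO cells with doxycycline, against 22.3 and 26.0 CPM in WT cells with doxycycline. With retinoic acid, Smad6 stood at 20.8 and 21.3 CPM in KO cells and 20.2 and 20.9 CPM in WT cells. Untreated KO cells held 3.72 and 3.71 CPM, against 7.17 and 6.91 CPM in untreated WT cells. KO lay below WT untreated and with doxycycline, and the retinoic acid groups overlapped. The untreated KO level was 1.90-fold lower (log2 change -0.92 ± 0.152, edgeR adjusted p = 2.5e-05), and with doxycycline it was 1.38-fold lower (log2 change -0.47 ± 0.0955, edgeR adjusted p = 0.00026). With retinoic acid no difference was called (log2 change 0.04 ± 0.0913, edgeR adjusted p = 0.78). Smad6 rose by 4.72-fold with doxycycline in KO cells (log2 change 2.24 ± 0.131, edgeR adjusted p = 7.6e-15) and 3.44-fold in WT cells (log2 change 1.78 ± 0.111, edgeR adjusted p = 3.1e-14). It rose by 5.66-fold with retinoic acid in KO cells (log2 change 2.501 ± 0.126, edgeR adjusted p = 1.7e-16) and 2.91-fold in WT cells (log2 change 1.54 ± 0.111, edgeR adjusted p = 5.9e-13), and the retinoic acid responses differed (0.96 ± 0.178, edgeR adjusted p = 0.00023). The doxycycline responses were not called different (0.46 ± 0.181, edgeR adjusted p = 0.079), but were without WT doxycycline replicate 2 (0.58, adjusted p = 0.036).

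Smad7 (chr18:75367529-75395935, plus strand), which blocks receptor-activated Smads of both the BMP and the TGF-beta and activin branches, moved the other way from Smad6 with treatment. KO cells with doxycycline held 83.5 and 90.0 CPM, against 102 and 114 CPM in WT cells with doxycycline. Retinoic acid-treated KO cells held 24.0 and 23.7 CPM, and retinoic acid-treated WT cells 47.8 and 45.8 CPM. Untreated levels were 105 and 103 CPM in KO cells and 115 and 125 CPM in WT cells. In each condition both KO libraries lay below both WT libraries. The deficit was widest with retinoic acid, where KO cells held 1.96-fold less (log2 change -0.97 ± 0.0716, edgeR adjusted p = 1.1e-11). With doxycycline the KO level was also lower (log2 change -0.32 ± 0.0599, edgeR adjusted p = 0.0001). Untreated it was 1.15-fold lower (log2 change -0.21 ± 0.0591, edgeR adjusted p = 0.0081), a call lost without WT untreated replicate 2 (-0.16, adjusted p = 0.13), without KO untreated replicate 2 (-0.21, adjusted p = 0.057) or with effective-length offsets (-0.18, adjusted p = 0.1). With retinoic acid, Smad7 fell by 4.35-fold in KO cells (log2 change -2.12 ± 0.0685, edgeR adjusted p = 6.6e-21) and 2.56-fold in WT cells (log2 change -1.36 ± 0.062, edgeR adjusted p = 2.5e-17), and the fall was larger in KO cells (difference -0.77 ± 0.0931, edgeR adjusted p = 5.6e-07). The smaller fall with doxycycline was called in KO cells (log2 change -0.26 ± 0.0603, edgeR adjusted p = 0.00045) and in WT cells (log2 change -0.15 ± 0.0587, edgeR adjusted p = 0.027). The WT call was lost without WT untreated replicate 2 (-0.09, adjusted p = 0.3), without WT doxycycline replicate 1 (-0.08, adjusted p = 0.36), and with effective-length offsets (-0.08, adjusted p = 0.4). The difference of doxycycline responses was not called (-0.11 ± 0.0841, edgeR adjusted p = 0.42).

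Among the Id genes, Id1 (chr2:152736251-152737410, plus strand) was higher in KO than in WT cells in each condition. KO cells with doxycycline held 314 and 249.6 CPM, against 99.3 and 119 CPM in WT cells with doxycycline. KO cells with retinoic acid held 332 and 335 CPM, against 119 and 126 CPM in WT cells with retinoic acid. Untreated KO cells held 159 and 160.0 CPM, against 98.0 and 93.9 CPM in untreated WT cells. Every KO library, untreated ones included, lay above every WT library of any condition. The KO excess was 2.57-fold with doxycycline (log2 change 1.36 ± 0.115, edgeR adjusted p = 2.3e-05), 2.73-fold with retinoic acid (log2 change 1.45 ± 0.112, edgeR adjusted p = 1.3e-05) and 1.66-fold untreated (log2 change 0.73 ± 0.118, edgeR adjusted p = 0.0019). With doxycycline, Id1 rose in KO cells (log2 change 0.82 ± 0.112, edgeR adjusted p = 0.00022), and its change in WT cells did not pass (log2 change 0.19 ± 0.12, edgeR adjusted p = 0.2) but did without WT doxycycline replicate 1 (0.32, adjusted p = 0.024). With retinoic acid, it rose by 2.09-fold in KO cells (log2 change 1.06 ± 0.112, edgeR adjusted p = 2.8e-05). In WT cells the rise was smaller (log2 change 0.35 ± 0.118, edgeR adjusted p = 0.026) and its call was lost without WT untreated replicate 1 (0.35, adjusted p = 0.08), WT untreated replicate 2 (0.29, adjusted p = 0.13) or WT retinoic acid replicate 2 (0.29, adjusted p = 0.11). The responses were larger in KO cells for doxycycline (difference 0.63 ± 0.164, edgeR adjusted p = 0.032) and retinoic acid (difference 0.71 ± 0.162, edgeR adjusted p = 0.019). The first call was lost without any 1 of the 4 untreated libraries (0.60 to 0.66, adjusted p 0.064 to 0.085). The second was lost without WT untreated replicate 1, either KO untreated library or WT retinoic acid replicate 1 (0.68 to 0.72, adjusted p 0.053 to 0.055).

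Id2 (chr12:25093799-25097140, minus strand), whose promoter window above holds the GGCGCC element, was highest in KO cells with retinoic acid. KO cells with doxycycline held 50.8 and 48.2 CPM, against 52.8 and 59.0 CPM in WT cells with doxycycline. With retinoic acid, Id2 read 143 and 151 CPM in KO cells and 51.1 and 48.2 CPM in WT cells. Untreated KO cells held 14.5 and 13.7 CPM, against 11.1 and 11.2 CPM in untreated WT cells. The retinoic acid-treated KO libraries lay far above all others, and the untreated libraries lay below all treated ones. With retinoic acid the KO level was 2.96-fold higher (log2 change 1.56 ± 0.0604, edgeR adjusted p = 9.9e-18). Untreated, it was 1.27-fold higher (log2 change 0.34 ± 0.104, edgeR adjusted p = 0.013), a call lost without WT untreated replicate 1 (0.33, adjusted p = 0.084), WT untreated replicate 2 (0.34, adjusted p = 0.074) or KO untreated replicate 1 (0.29, adjusted p = 0.12). With doxycycline, Id2 was 1.13-fold lower in KO cells (log2 change -0.18 ± 0.0665, edgeR adjusted p = 0.033), and this call was lost without WT doxycycline replicate 2 (-0.10, adjusted p = 0.38) or KO doxycycline replicate 2 (-0.14, adjusted p = 0.17), and in DESeq2 (-0.17, adjusted p = 0.16). With doxycycline, Id2 rose by 3.50-fold in KO cells (log2 change 1.81 ± 0.082, edgeR adjusted p = 2.4e-17) and 5.04-fold in WT cells (log2 change 2.33 ± 0.084, edgeR adjusted p = 1.0e-19), a smaller rise in KO cells (difference -0.53 ± 0.124, edgeR adjusted p = 0.0028). With retinoic acid, it rose by 10.4-fold in KO cells (log2 change 3.38 ± 0.0747, edgeR adjusted p = 1.2e-24) and 4.46-fold in WT cells (log2 change 2.16 ± 0.0837, edgeR adjusted p = 6.2e-19), a larger rise in KO cells (difference 1.22 ± 0.122, edgeR adjusted p = 1.6e-08).

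Id3 (chr4:136143497-136145755, plus strand), whose promoter window above holds no motif match, rose most with doxycycline. KO cells with doxycycline held 343 and 330.4 CPM, against 193 and 220.4 CPM in WT cells with doxycycline. Retinoic acid-treated KO cells held 88.6 and 94.7 CPM, and retinoic acid-treated WT cells 58.9 and 51.5 CPM. Untreated levels were 50.9 and 48.9 CPM in KO cells and 48.6 and 49.7 CPM in WT cells. Treated KO libraries lay above treated WT libraries, and the untreated genotypes overlapped. The KO excess was 1.63-fold with doxycycline (log2 change 0.70 ± 0.06, edgeR adjusted p = 1.3e-09) and 1.66-fold with retinoic acid (log2 change 0.73 ± 0.0675, edgeR adjusted p = 5.4e-09), and it was not called untreated (log2 change 0.02 ± 0.0756, edgeR adjusted p = 0.87). With doxycycline, Id3 rose by 6.75-fold in KO cells (log2 change 2.75 ± 0.0683, edgeR adjusted p = 6.5e-21) and 4.21-fold in WT cells (log2 change 2.07 ± 0.0685, edgeR adjusted p = 1.9e-18). With retinoic acid, it rose by 1.84-fold in KO cells (log2 change 0.88 ± 0.0704, edgeR adjusted p = 5.1e-11). In WT cells the retinoic acid change was small (log2 change 0.17 ± 0.0727, edgeR adjusted p = 0.039), and its call was lost without WT retinoic acid replicate 1 (0.05, adjusted p = 0.59), WT untreated replicate 1 (0.12, adjusted p = 0.29) or WT untreated replicate 2 (0.16, adjusted p = 0.16) and in DESeq2 (0.12, adjusted p = 0.2). Both responses were larger in KO cells, by 0.68 ± 0.0964 (edgeR adjusted p = 1.3e-05) for doxycycline and 0.71 ± 0.101 (edgeR adjusted p = 1.6e-05) for retinoic acid.

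The 2 genotypes answered the treatments differently for several members, as tested by the difference of their responses. Among the 8 members other than Bmp2 and Nog, the log2 response to doxycycline was higher in KO cells for Id1 and Id3 and lower for Bmp7 and Id2, 2 and 2 members beside 9.11% of all genes higher, 10.0% lower and 19.2% either way. The log2 response to retinoic acid was higher in KO cells for Smad6, Id1, Id2 and Id3, and lower for Bmp4, Bmp7 and Smad7, 4 and 3 members beside 7.31% of all genes higher, 10.3% lower and 17.7% either way. As given above, the Id1 calls for both treatments were lost without single libraries and that of Bmp4 with effective-length offsets. For Nog, with 5 counts in untreated KO cells, the KO response over the WT response was 12.2 for doxycycline (exact 95% interval 4.35 to 42.6) and 6.13 for retinoic acid (2.01 to 22.8). edgeR called both (adjusted p = 9.7e-05 for doxycycline and 0.0078 for retinoic acid), and the retinoic acid call was lost without WT untreated replicate 2 (adjusted p = 0.075). Each of these tests uses the untreated libraries, so the doxycycline and retinoic acid differences share them.

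Markers of the lineages that the treated cells can enter also differed between genotypes. The counts below stand beside 37.0% of all genes called with doxycycline, 38.8% with retinoic acid and 30.0% untreated. With doxycycline, 8 of 9 tested trophectoderm markers were lower in KO cells (1480 to 1490 TPM summed in KO libraries, 2100 to 2400 TPM in WT libraries), and 7 of 10 stem cell markers were lower and 2 higher (338 to 353 TPM in KO libraries, 434 to 475 TPM in WT libraries). In the same cells 5 of 10 primitive endoderm markers were higher and 2 lower (628 to 687 TPM in KO libraries, 465 to 467 TPM in WT libraries), and 2 of 6 tested neural markers were higher and 1 lower (135 to 139 TPM in KO libraries, 56.5 to 58.3 TPM in WT libraries). Fibroblast markers, which feeders would carry, were higher for 3 of 7 tested (21 to 23.4 TPM in KO libraries, 7.89 to 10.8 TPM in WT libraries). With retinoic acid, 10 of 10 primitive endoderm markers were higher in KO cells (4040 to 4330 TPM in KO libraries, 1940 to 2080 TPM in WT libraries) and 8 of 10 stem cell markers lower (1930 to 1970 TPM in KO libraries, 2660 to 2800 TPM in WT libraries). Of the trophectoderm markers there, 2 were higher and 4 lower (536 to 570 TPM in KO libraries, 426 to 467 TPM in WT libraries), of the fibroblast markers 1 was higher and 5 lower (28.9 to 31.1 TPM in KO libraries, 39.6 to 41.3 TPM in WT libraries), and of the neural markers 2 were higher (74.0 to 75.1 TPM in KO libraries, 72.0 to 72.4 TPM in WT libraries). Untreated, the stem cell list had 2 higher and 3 lower. In those cells, 1 trophectoderm marker was higher and 6 lower (76.2 to 76.8 TPM in KO libraries, 92.8 to 99.3 TPM in WT libraries), 3 primitive endoderm markers were higher and 2 lower (146 to 149 TPM in KO libraries, 188 to 189 TPM in WT libraries), 2 fibroblast markers were higher and 1 lower (40.6 to 42.6 TPM in KO libraries, 25.7 to 26.1 TPM in WT libraries), and 2 neural markers were higher and 3 lower (319 to 320 TPM in KO libraries, 303 to 310 TPM in WT libraries). The 6 mesoderm markers summed to 1.27 to 19.4 TPM over all libraries. Of the 4 tested, 1 was higher in KO cells with doxycycline (3.94 to 4.94 TPM in KO libraries, 3.3 to 3.36 TPM in WT libraries). With retinoic acid 2 were higher (18.9 to 19.4 TPM in KO libraries, 13.1 to 13.9 TPM in WT libraries), and untreated 0 were called. Lum, of the fibroblast list, was at 0 in both libraries of untreated KO cells and of WT cells with doxycycline, Neurog2, of the neural list, was at 0 in those of WT cells untreated and with doxycycline, and no stem cell, trophectoderm or primitive endoderm marker was at 0 throughout a group. The part of these markers in the changes of Id1, Id2, Id3, Bmp2 and the other members was not tested. In bulk RNA, fewer cells of a type and less RNA per cell cannot be told apart.

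A wider list of 53 BMP pathway genes, of which 43 were tested, was called about as often as genes at large in treated cells. In KO against WT cells, 11 were higher and 5 lower with doxycycline, 11 higher and 6 lower with retinoic acid, and 5 higher and 3 lower untreated, or, of those tested, 37.2% with doxycycline, 39.5% with retinoic acid and 18.6% untreated. The shares over all genes were the 37.0%, 38.8% and 30.0% given above. Of 7 other targets tested, 2 were higher and 1 lower in KO cells with doxycycline, and 3 higher and 1 lower with retinoic acid. Untreated, 1 was higher. Id4, the remaining Id gene, was higher in KO cells with doxycycline (0.47 ± 0.0998, edgeR adjusted p = 0.0004) and retinoic acid (0.41 ± 0.144, edgeR adjusted p = 0.024), as was Msx1, a homeobox gene that BMP induces (0.91 ± 0.256, edgeR adjusted p = 0.0079 with doxycycline, 0.61 ± 0.129, edgeR adjusted p = 0.00069 with retinoic acid). Dusp9 averaged 851.6 CPM in KO and 1212 CPM in WT cells with doxycycline, and 566.5 and 516 CPM with retinoic acid. Dlx5 held 5 and 11 counts in KO cells and 31 and 19 counts in WT cells with retinoic acid. Among the receptor-activated Smads, Smad9 was higher in KO cells with doxycycline (1.39 ± 0.298, edgeR adjusted p = 0.00043) and retinoic acid (1.16 ± 0.23, edgeR adjusted p = 0.00018), Smad1 passed in no condition, and Smad5 was lower with retinoic acid (-0.32 ± 0.0535, edgeR adjusted p = 2.1e-05).

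Of 10 tested secreted antagonists other than Nog, 3 were higher and 1 lower in KO cells with doxycycline, 3 were higher with retinoic acid and 2 were higher untreated. That was 40.0% called with doxycycline, 30.0% with retinoic acid and 20.0% untreated. Over all genes the shares were 37.0%, 38.8% and 30.0%, so the antagonists were called about as often as genes at large, or less often. The 1 that was lower was Fstl3, which binds activins (-1.79 ± 0.198, edgeR adjusted p = 2.3e-08). Fst, which binds activins and some BMPs, read 20.9 and 19.9 CPM in untreated KO cells and 5.00 and 6.29 CPM in untreated WT cells (log2 change 1.85 ± 0.149, edgeR adjusted p = 1.1e-10), and was also higher with doxycycline (1.10 ± 0.383, edgeR adjusted p = 0.024). Grem1, another ligand trap, was higher in untreated KO cells (1.60 ± 0.399, edgeR adjusted p = 0.0028). With doxycycline it was near the limit of detection, at 6 and 6 counts in KO cells and 2 and 0 counts in WT cells, a ratio of count rates of 5.98 (exact 95% interval 1.33 to 55.0). Twsg1, a further secreted modulator, was higher in KO cells with doxycycline (0.29 ± 0.0594, edgeR adjusted p = 0.00022) and retinoic acid (0.24 ± 0.0558, edgeR adjusted p = 0.00088). Bmper, a secreted modulator of BMP signals, averaged 15.8 ± 0.224 CPM in KO cells with retinoic acid and 5.71 ± 0.522 CPM in WT cells with retinoic acid (SD, n = 2 each; log2 change 1.47 ± 0.153, edgeR adjusted p = 8.8e-09). Chrdl1, related to chordin, was higher in the same comparison (1.22 ± 0.198, edgeR adjusted p = 1.3e-05). Gdf3, a ligand-like family member that is made by stem cells and can inhibit BMPs, was lower in KO cells in all 3 conditions (-1.02 ± 0.328, edgeR adjusted p = 0.015 with doxycycline, -0.98 ± 0.136, edgeR adjusted p = 1.3e-06 with retinoic acid and -0.87 ± 0.0818, edgeR adjusted p = 2.1e-09 untreated). Of 5 intracellular inhibitors tested, 2 were higher and 1 lower in KO cells with doxycycline, and 1 was higher and 2 lower with retinoic acid. That was 60.0% called with each treatment, on few genes, beside the same all-gene shares. Ski, a nuclear repressor of Smad-driven transcription, was lower in KO cells with doxycycline (-0.72 ± 0.0473, edgeR adjusted p = 8.6e-13) and retinoic acid (-0.30 ± 0.0484, edgeR adjusted p = 1.5e-05). Skil, of the same list, averaged 127.7 CPM in KO and 82.9 CPM in WT cells with doxycycline, and 157.5 and 137.3 CPM with retinoic acid.

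In both genotypes the wider list held more genes that rose than genes that fell with either treatment. Of the 43 tested, 24 rose and 8 fell with doxycycline in KO cells (74.4% in all, beside 62.3% of all genes), and 26 rose and 10 fell in WT cells (83.7%, beside 63.0%). With retinoic acid, 33 rose and 6 fell in KO cells (90.7%, beside 75.5%), and 33 rose and 5 fell in WT cells (88.4%, beside 73.9%). Over all genes the shares were 31.2% higher and 31.2% lower with doxycycline in KO cells, 31.8% and 31.3% in WT cells, 40.9% and 34.6% with retinoic acid in KO cells, and 41.0% and 32.9% in WT cells. Msx2, of this list, passed the count filter through its treated libraries, as Bmp2 and Nog did. So did others, among them Bmp5 (0 counts in each untreated library), Bmper, Gdf6, Dlx5, Atoh8, Chrdl1, Smad9 and Msx1. Such genes had little room to fall, and Grem1, which passed through its untreated libraries, had little room to rise. The counts, shares and medians of the list are therefore a description only. The receptor gene Bmpr1a rose with doxycycline in KO cells (0.90 ± 0.0543, edgeR adjusted p = 1.7e-14) and WT cells (0.90 ± 0.0544, edgeR adjusted p = 1.9e-14), and with retinoic acid in KO cells (0.92 ± 0.0538, edgeR adjusted p = 4.8e-15) and WT cells (0.73 ± 0.0541, edgeR adjusted p = 1.1e-12). Msx2, a homeobox target, had 4 and 18 counts in untreated KO cells and 9 and 5 counts in untreated WT cells. Its ratio of count rates, doxycycline over untreated, was 57.9 in KO cells (exact 95% interval 38.1 to 92.7) and 93.6 in WT cells (55.6 to 172). The median log2 change of the list with doxycycline was 0.64 in KO cells and 0.54 in WT cells, and with retinoic acid 0.70 in KO cells and 0.80 in WT cells. Over all genes these medians were -0.00021 in KO cells and 0.0 in WT cells with doxycycline, and 0.10 in KO cells and 0.12 in WT cells with retinoic acid.

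Over the 12 libraries and 10889 genes averaging 5 CPM or more, those whose log2 levels ran most like those of Id1 were Igsf1 (Pearson r = 0.975), Abcb1b (0.969), which encodes a drug efflux pump, and Il6st (0.964), which encodes the gp130 receptor subunit that LIF uses. Those most like Id2 were Hspg2 (0.990), which encodes the basement membrane proteoglycan perlecan, Fam234a (0.987) and Akap13 (0.986). Those most like Bmp4 were Apex1 (0.991), a base excision repair enzyme, Zfp428 (0.991) and Oxnad1 (0.990). These values describe libraries that share 6 group levels, and the genes were picked for their likeness.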

How the data were processed

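The submitters' processing notes name STAR 2.5.3a, RSEM 1.3.0, DESeq2 1.18.1 and the build mm10; neither the annotation release nor the strand setting is given in the sources used here. Each library's RSEM table, as deposited, holds 1 expected count, 1 TPM and 1 effective length per gene, per the file headers. An expected count divides reads shared by several genes, and it was rounded to a whole number. TPM entered as deposited by the authors, to compare genes. The effective lengths entered 1 alternative.

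Groups came from the labels. All 12 libraries (15799517 to 21441996 counts) were fitted together in edgeR 4.0.16 (R 4.3.3) with TMM factors, filterByExpr at a minimum count of 10, a robust quasi-likelihood fit with 1 term per group (6 residual degrees of freedom), and Benjamini-Hochberg adjustment over 17884 genes; a call is an adjusted p below 0.05. The fit was tested on simulated data. SEs are the log2 change over the root of F. Count-rate intervals are exact at 95% and cover counting error only. Identifiers of 53274 genes matched GENCODE M21. The alternatives were other scaling factors (RLE, upper quartile), filters, DESeq2 1.42.0, effective-length offsets, a replicate block, fits on the compared groups only, no chromosome 1 genes, and leaving out each library. Replicate numbers gave 15 correlations of deviations from group means, from -0.314 to 0.199, of which 3 passed 0.1, so the numbers were not taken to pair the libraries. The 10 members, the wider pathway list and the marker lists were chosen with earlier results of these data known. Members are named whether or not they were called. Only some of the called wider-list genes are named with values, and Smad1 beside its relatives as not called. Others of that list, such as Eng, Rgma and Bmp6, were called in at least 1 comparison of KO with WT cells and are not described. Genes like a member are the 3 of highest Pearson r on log2(CPM + 1).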

Additional observations from a re-analysis of the deposited data

Results flagged for a closer look

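The difference of responses between genotypes, KO minus WT, was itself tested in edgeR, at an adjusted p below 0.05. Among the 8 members other than Bmp2 and Nog, 2 passed higher and 2 lower for doxycycline. For retinoic acid, 4 passed higher and 3 lower. Over all genes, 19.2% passed for the doxycycline response and 17.7% for the retinoic acid response. Nog passed the count filter through its treated libraries, so its differences, which also passed, are listed below but not counted here. For the doxycycline response the difference on the log2 scale was 3.59 for Nog, 0.68 for Id3, 0.63 for Id1, -0.53 for Id2 and -0.80 for Bmp7. For the retinoic acid response it was 2.59 for Nog, 1.22 for Id2, 0.96 for Smad6, 0.71 for Id1, 0.71 for Id3, -0.59 for Bmp4, -0.77 for Smad7 and -0.98 for Bmp7. The Nog values are fitted differences that rest on 5 counts in untreated KO cells, so their size is loosely set: as ratios of responses the exact 95% intervals were 4.35 to 42.6 for doxycycline and 2.01 to 22.8 for retinoic acid, and the retinoic acid call was lost without WT untreated replicate 2. The Id1 calls were lost without single libraries, and that of Bmp4 with effective-length offsets. The Id2 differences had opposite signs for the 2 treatments.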

How the results depend on the processing

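Of 1248 member values under alternatives, 1173 kept their direction and side of the threshold, 49 fell below it, 15 passed it and 11 changed sign, and each of the 11 was a value not called. With effective-length offsets Bmp7 read -0.0333 for KO against WT untreated and 0.0245 for retinoic acid in KO cells, and without chromosome 1 genes Id3 read -0.0012 for KO against WT untreated. Leaving out 1 library turned the sign of Id3 for KO against WT untreated (range -0.019 to 0.0398, also -0.0085 without WT untreated replicate 1), Bmp2 for the same comparison (-0.0762 to 0.346), Nog for retinoic acid in WT cells (-0.17 to 0.551), Bambi for doxycycline in KO cells (-0.0287 to 0.301) and Bambi for KO against WT with doxycycline (-0.31 to 0.0285). The cause was not tested.

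Counts of members here are over all 10, Bmp2 and Nog included. Effective-length offsets left 2 members lower for KO against WT untreated and 0 for doxycycline in WT cells (Bmp4 -0.42 and Smad7 -0.0779 lost their calls there), where fitting only the groups compared left 1. All-gene calls for the difference of doxycycline responses were 3425, against 2130 with DESeq2 and 1983 with offsets, and for retinoic acid 3157, against 1867 with DESeq2 and 1759 with offsets. Upper-quartile factors gave 5 members higher for the difference of doxycycline responses in place of 3. They also moved the all-gene split for KO against WT with doxycycline to 4168 higher and 2706 lower, from 3197 and 3417, that for the difference of doxycycline responses to 2162 and 1331, from 1630 and 1795, and the all-gene median for doxycycline in WT cells by -0.1131; no member changed direction under RLE or upper-quartile factors. Leaving out 1 library gave 1 to 2 members higher and 2 to 4 lower for KO against WT untreated, and 1 to 2 lower for doxycycline in WT cells. It gave 3 higher in place of 4, and 3 to 5 lower, for KO against WT with doxycycline. For retinoic acid in WT cells it gave 5 to 6 higher in place of 7.

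With a replicate block, all-gene calls for KO against WT were 6471 with doxycycline, 6806 with retinoic acid and 5215 untreated, and among members only Id1, for the difference of doxycycline responses, lost its call (0.63, adjusted p = 0.054), leaving 2 members higher. Of 12 libraries, 6 correlated best with one of their own number. Nog and Bmp2 are limited by depth, with 2 to 14 counts in each untreated library.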
